A study of Mus musculus with 50 samples.

Results

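Genes of cholesterol synthesis and sterol regulation were followed in mouse hippocampus, in animals that were wild type (WT) or carried a DCLK transgene (TG). The set holds 30 genes, chosen by symbol among the Agilent probes that are not controls, and all 30 had at least 1 probe among the 34431 genes and unnamed probes tested. The WT mice were male C57/BL6j animals, and the TG mice were males on the same background that over-expressed DCLK-short, a splice variant of doublecortin-like kinase-1 that makes the kinase constitutively active. All mice of both genotypes were housed individually for 7 days before the hippocampi were taken, and both hippocampi of each mouse were dissected. Their age and the promoter that drives the transgene are not given in the sources used here. On the two-color Agilent arrays, cRNA of 1 WT and 1 TG mouse was hybridized together on each of 10 arrays. By the labels, Cy3 marked WT cRNA on arrays 1 to 5 and TG cRNA on arrays 6 to 10, and each of the 5 WT and 5 TG mice was on 2 arrays. In whole hippocampus, less RNA per cell and fewer cells of a type cannot be told apart.

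Cholesterol in the brain is made locally, because lipoproteins of the blood do not cross the blood-brain barrier. Synthesis starts from acetyl-CoA, runs through mevalonate and the isoprenoid units to farnesyl pyrophosphate, and continues from squalene over lanosterol to cholesterol. When sterols in the endoplasmic reticulum are low, SCAP carries the SREBP transcription factors to the Golgi for cleavage, and the cleaved factors activate the genes of synthesis; INSIG proteins hold SCAP back when sterols are abundant. Surplus sterol is exported by ABC transporters under control of the liver X receptors, esterified for storage, or hydroxylated in neurons for removal from the brain.

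The direction of every Agilent difference depends on the array labels. All signs below are TG over WT as labelled, and the hybridization design in the study's supplement lists the same mice and dyes for each array. However, a supplementary table of expression values from the study follows an exchange of arrays 1 to 5 with arrays 6 to 10. The sign in that table is the opposite of the one given here, so these sources of the study conflict. Under that exchange, each log ratio and each count of higher and lower genes turns its sign, while sizes and p values over the 10 arrays stay as they are. The deviations of the log ratios from the mean of their dye orientation were compared between arrays over all genes. For the 6 array pairs that share a mouse as labelled but not after the exchange, the mean correlation was -0.15 (range -0.45 to 0.04). For the 6 pairs that share a mouse only after the exchange, it was 0.20 (range -0.18 to 0.45), and these ranges overlap. It was 0.41 (0.17 to 0.75) for the 4 pairs that share a mouse under both. For the 9 pairs between the orientations that share none, it was -0.19 (-0.44 to 0.14). Pairs within an orientation were not compared. Taking deviations from the mean of each orientation makes the covariances over the pairs between them cancel, so some negative correlations are built in. Genes are not independent replicates, and these correlations describe the arrays only. The study also ran qRT-PCR on the same RNA samples for genes outside this set, whose signs do not depend on the array labels. Those genes were not compared with the labelled arrays here. Dclk1, the gene of the transgene, had 4 probes whose mean log2 ratio was -0.07 ± 0.03 (SE, n = 10 arrays; limma FDR 0.27), with a range of -0.25 to 0.05 over the arrays, so it does not settle the labels; whether these probes detect the transgene is not given in the sources used here.

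Arrays 1 and 9 stood apart. The SD of the log2 ratios over all genes was 0.27 on array 1 and 0.34 on array 9, against 0.13 to 0.22 on the other 8. These arrays share TG mouse 4 as labelled. All 5 hippocampal markers had a present probe, which means that on each array both its Cy3 and its Cy5 signal exceeded 95% of the negative controls. A difference was called at a false discovery rate (FDR) of 0.1 or less, from a moderated test of the 10 log ratios in limma with Benjamini-Hochberg adjustment over all genes. With this rule, 2823 of the 34431 genes (8.2%) were called, 4.06% higher and 4.14% lower in TG as labelled. The number of arrays and of mice, 5 per genotype, limits the precision. Since each mouse was on 2 arrays, the 10 log ratios are not independent.

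The promoters of the called enzymes are shown first, because members of this pathway are known to share control elements near their start. RefSeq promoter windows of GRCm38.p6, with 250 bases before and 50 bases after the start, matched 25 of the 30 genes. Both strands were searched for the core of the sterol response element, TCACNCCAC, and for the CCAAT box. The CCAAT box was found in 20 of the 25 genes, and in 41.1% of the 27025 genes in the table. All 7 called genes with a window held it, as did 13 of the 18 others. These others mix synthesis enzymes with regulators and transporters. Among the uncalled synthesis enzymes with a window, Hmgcs1, Mvk, Idi1, Cyp51, Msmo1, Nsdhl and Hsd17b7 held it and Acat2 did not. A link between the CCAAT box and being called was not tested. The SRE core was found in 1 of the 25 genes, Hmgcs1, and in 1.44% of all genes. None of the matches below overlapped. A match is a description of the letters and not a site. For each gene, the 200 bases before the start are given 5′ to 3′ on the strand of the gene, with CCAAT or its complement ATTGG in capitals, and with TCACCCCAC in capitals for Hmgcs1. Hmgcs1 was added after its values were seen, because it alone holds the SRE core. For Pmvk and Dhcr7, which have several windows, the one with the match is given.
Pmvk (chr3:89454341-89454540, plus strand): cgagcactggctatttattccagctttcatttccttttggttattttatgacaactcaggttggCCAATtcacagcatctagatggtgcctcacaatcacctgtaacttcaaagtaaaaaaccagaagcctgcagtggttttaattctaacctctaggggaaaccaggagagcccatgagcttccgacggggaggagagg
Mvd (chr8:122443423-122443622, minus strand): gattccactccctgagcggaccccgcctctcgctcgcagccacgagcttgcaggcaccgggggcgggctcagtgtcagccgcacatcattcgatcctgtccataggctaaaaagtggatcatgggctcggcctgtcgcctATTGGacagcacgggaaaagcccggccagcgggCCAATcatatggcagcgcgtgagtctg
Lss (chr10:76531405-76531604, plus strand): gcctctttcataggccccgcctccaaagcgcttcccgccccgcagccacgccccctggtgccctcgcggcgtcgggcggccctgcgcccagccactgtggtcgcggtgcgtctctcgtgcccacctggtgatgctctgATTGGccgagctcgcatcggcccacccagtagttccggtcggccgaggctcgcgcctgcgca
Tm7sf2 (chr19:6067851-6068050, minus strand): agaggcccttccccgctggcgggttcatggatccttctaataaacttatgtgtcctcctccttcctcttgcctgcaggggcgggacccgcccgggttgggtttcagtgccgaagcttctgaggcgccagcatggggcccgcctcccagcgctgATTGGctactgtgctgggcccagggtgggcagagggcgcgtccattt
Ebp (chrX:8193513-8193712, minus strand): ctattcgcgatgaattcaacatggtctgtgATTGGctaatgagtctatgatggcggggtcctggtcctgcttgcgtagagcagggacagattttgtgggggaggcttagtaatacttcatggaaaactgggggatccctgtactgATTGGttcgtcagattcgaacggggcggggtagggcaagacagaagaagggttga
Sc5d (chr9:42264301-42264500, minus strand): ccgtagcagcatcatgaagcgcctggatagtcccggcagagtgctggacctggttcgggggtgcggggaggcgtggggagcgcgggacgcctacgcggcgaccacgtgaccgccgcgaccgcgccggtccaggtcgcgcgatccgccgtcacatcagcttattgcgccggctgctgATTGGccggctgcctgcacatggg
Dhcr7 (chr7:143830014-143830213, plus strand): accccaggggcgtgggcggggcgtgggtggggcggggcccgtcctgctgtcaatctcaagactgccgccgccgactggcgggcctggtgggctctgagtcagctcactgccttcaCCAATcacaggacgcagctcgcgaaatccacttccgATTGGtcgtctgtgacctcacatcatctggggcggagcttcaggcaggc
Hmgcs1 (chr13:119690151-119690350, plus strand): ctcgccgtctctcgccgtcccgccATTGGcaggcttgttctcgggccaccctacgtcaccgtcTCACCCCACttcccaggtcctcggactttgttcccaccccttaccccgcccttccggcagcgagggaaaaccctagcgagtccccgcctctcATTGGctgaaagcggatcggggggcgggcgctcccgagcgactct
Counted from the start, the match begins at position -136 in Pmvk, -62 in Lss, -47 in Tm7sf2 and -24 in Sc5d, and the SRE core of Hmgcs1 begins at -137. Mvd, Ebp and Dhcr7 each hold 2 matches. The called genes Fdps and Sqle are named without a sequence.

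Some enzymes of cholesterol synthesis were slightly higher in the TG hippocampus as labelled when the 10 arrays were taken as the samples, and 0 were called with 1 value per mouse. None of the regulators or transporters was called. Of the 30 genes, 9 were called, all 9 higher and 0 lower as labelled. These are 30% of the set, and 4.06% of all genes were called higher. All 30 had a present probe, and 9.79% of the genes with a present probe were called in either direction. The set was chosen with earlier results of these data known, so its share is no independent result. The genes called were Pmvk, Mvd and Fdps of the mevalonate arm and Sqle, Lss, Tm7sf2, Ebp, Sc5d and Dhcr7 of the squalene and sterol arm. Their log2 ratios lay between 0.10 (Sc5d) and 0.30 (Pmvk), which is 1.07-fold to 1.23-fold. Over all 30 genes the median log2 ratio was 0.05, with 20 positive and 10 negative values, and over all genes tested it was 0.0034. An unadjusted p under 0.05 was found for 14 of the 30 genes, and for 6563 of the 34431 genes tested. With 1 value per mouse instead of 2 arrays per mouse, no member was called in limma, neither as labelled (10 of 30 with an unadjusted p under 0.05, and 8.18% of all genes) nor after the exchange (9 of 30, and 7.41% of all genes). In that fit 29 genes of the whole array (0.0842%) were called as labelled and 11 (0.0319%) after the exchange. With median centring in place of loess, 4 of the 9 calls were made, and 91.1% of all called genes were higher as labelled, against 49.6% with loess.

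**Figure D1:**
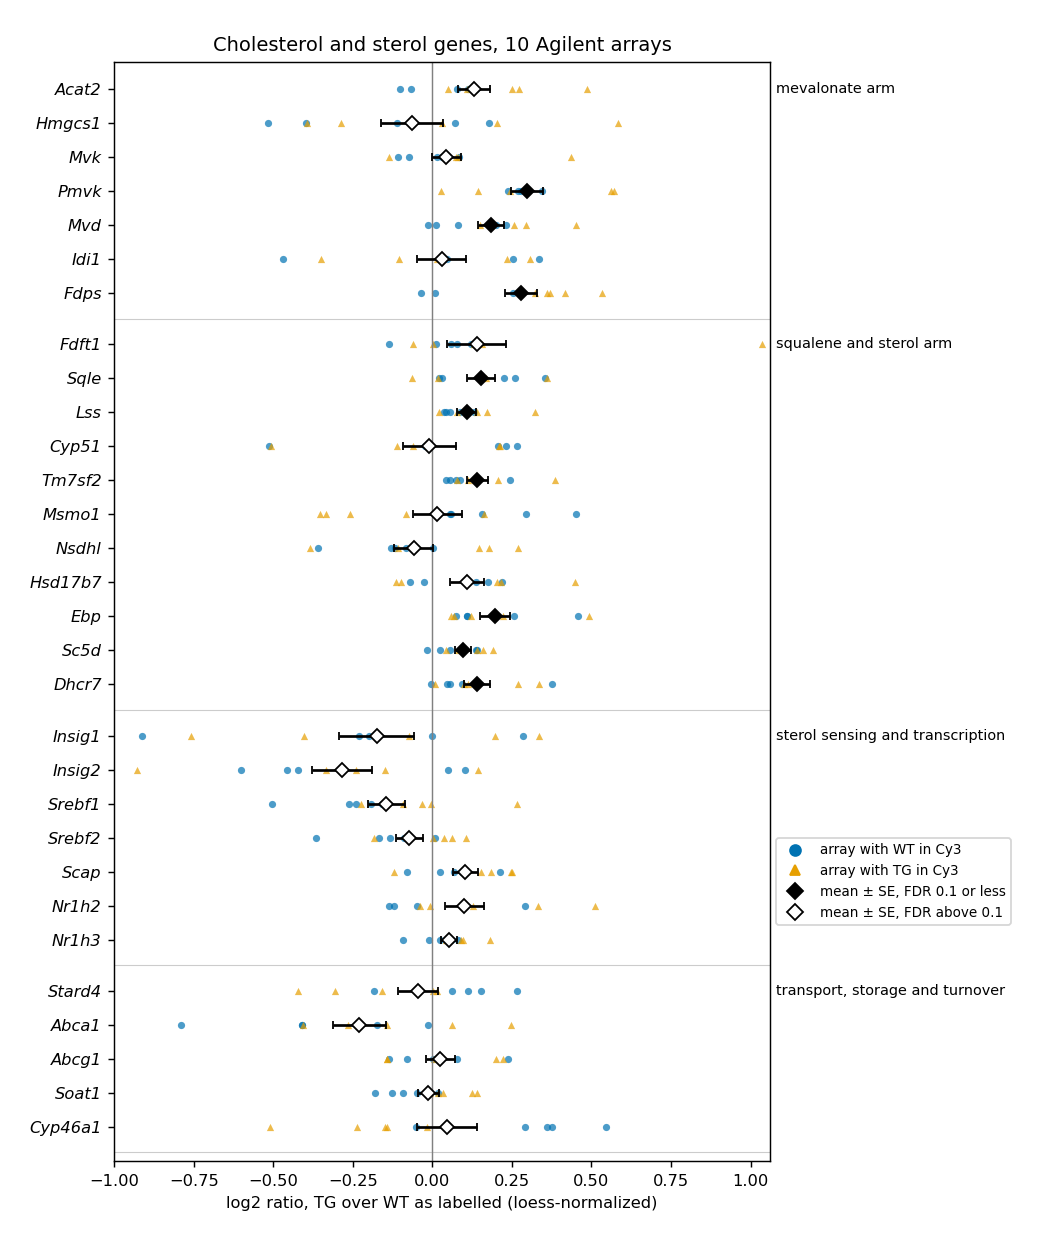
Log2 ratio of TG over WT as labelled (x axis) for the 30 genes (y axis, grouped by role) on the 10 Agilent arrays. Circles are arrays with WT in Cy3, triangles arrays with TG in Cy3, and diamonds the mean ± SE, filled at an FDR of 0.1 or less; the 9 filled diamonds lie between 0.10 and 0.30.

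The mevalonate arm had 7 genes, of which 3 were called higher as labelled and 4 were not called, with a median log2 ratio of 0.13. Pmvk encodes phosphomevalonate kinase, which adds the second phosphate to mevalonate. Its log2 ratios on arrays 1 to 10 were 0.27, 0.35, 0.30, 0.24, 0.28, 0.57, 0.03, 0.24, 0.56 and 0.14. All 10 were positive, with the lowest on array 7 and the highest on arrays 6 and 9. The mean was 0.30 ± 0.05 (SE, n = 10, FDR 0.015), and with 1 value per mouse the FDR in limma was 0.34 as labelled and 0.37 after the exchange. Both probes of Pmvk, adjacent on chromosome 3 from 89225484 to 89225543 and from 89225544 to 89225603 (coordinates of the array files, whose build is not given in the sources used here), were called, with 0.28 and 0.32. The log2 signals of Pmvk in WT mice 1, 3, 4, 5 and 6 were 8.53, 8.12, 8.36, 8.40 and 8.55, and those in TG mice 1 to 5 were 8.88, 8.68, 8.67, 8.66 and 8.55. The groups did not overlap, though TG mouse 5 and WT mouse 6 nearly met.

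Fdps, farnesyl diphosphate synthase, makes the last intermediate before the pathway divides into sterols and other isoprenoids. The log2 ratios of Fdps on arrays 1 to 10 were 0.28, 0.27, 0.25, -0.04, 0.01, 0.42, 0.37, 0.36, 0.53 and 0.32. Arrays 4 and 5 were near 0, and all 5 arrays with TG in Cy3 were at or above 0.32. The mean was 0.28 ± 0.05 (SE, n = 10, FDR 0.020). With 1 value per mouse, Fdps had the smallest FDR of the set in limma both as labelled, 0.11, and after the exchange, 0.31. The log2 signals of Fdps were 9.23, 9.28, 9.45, 9.38 and 9.39 in WT mice 1, 3, 4, 5 and 6, and 9.62, 9.61, 9.55, 9.67 and 9.66 in TG mice 1 to 5. The groups did not overlap. Of the 30 genes, 3 had groups that did not overlap as labelled (Pmvk, Fdps and Insig2), and 2.12% of all genes did; after the exchange these were Fdps and Lss, and 1.57% of all genes.

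Mvd encodes the decarboxylase that makes isopentenyl diphosphate, the first isoprenoid unit. On arrays 1 to 10 its log2 ratios were 0.20, 0.08, 0.23, 0.01, -0.02, 0.18, 0.15, 0.26, 0.45 and 0.29. Only array 5 was below 0, and arrays 4 and 5 were again the lowest. The mean was 0.18 ± 0.04 (SE, n = 10, FDR 0.040), and the mouse values, 7.73 ± 0.08 in WT and 7.91 ± 0.12 in TG (SD, n = 5), overlapped.

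The other 4 genes of this arm were not called. Acat2, the acetyl-CoA acetyltransferase of the first step, had a log2 ratio of 0.13 ± 0.05 (SE, n = 10, FDR 0.17). Mvk, the mevalonate kinase before Pmvk, had 0.04 ± 0.05 (FDR 0.72). For Hmgcs1, the synthase that condenses acetyl-CoA to HMG-CoA, the mean of its probes was -0.06 ± 0.10 (FDR 0.83). Idi1, the isomerase of the isoprenoid units, had 0.03 ± 0.08 (FDR 0.92). The Idi1 probes are uncertain, since the array files place both on chromosome 2, whereas the reference table places Idi1 on chromosome 13.

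For Hmgcs1 and Idi1 the mean joined probes that disagreed. One Hmgcs1 probe was called higher as labelled, with 0.26 ± 0.05 (SE, n = 10 arrays, FDR 0.022 over all probes), and its values were positive on 9 arrays. The other Hmgcs1 probe had -0.39 ± 0.19 (FDR 0.30), with -1.39 on array 1 and -1.31 on array 9. In the same way, one Idi1 probe had 0.20 ± 0.05 (FDR 0.054) and was positive on all 10 arrays, whereas the other had -0.14 ± 0.14 (FDR 0.68), with -1.09 on array 1 and -0.81 on array 9. Had the brighter probe alone stood for each gene, both Hmgcs1 (FDR 0.020) and Idi1 (FDR 0.050) would have been called higher, and Lss and Dhcr7 not, so that the count stayed at 9.

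The squalene and sterol arm had 11 genes, of which 6 were called higher as labelled and 5 were not called, with a median log2 ratio of 0.11. Ebp encodes the sterol isomerase that moves a double bond in the ring. Its log2 ratios on arrays 1 to 10 were 0.26, 0.46, 0.11, 0.11, 0.07, 0.49, 0.12, 0.07, 0.06 and 0.22. All 10 were positive and 3 of them exceeded 0.25. The mean was 0.20 ± 0.05 (SE, n = 10, FDR 0.047).

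Sqle, squalene epoxidase, catalyses the first oxygen-dependent step. On the 10 arrays it had log2 ratios of 0.35, 0.03, 0.02, 0.22, 0.26, 0.02, 0.17, -0.06, 0.36 and 0.15. The highest values were those of arrays 1 and 9, and 3 arrays were within 0.03 of 0. The mean was 0.15 ± 0.04 (SE, n = 10, FDR 0.079), and without arrays 1 and 9 it was 0.10 (FDR 0.22).

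Tm7sf2 encodes a sterol C14-reductase. The 10 log2 ratios of Tm7sf2 were 0.07, 0.24, 0.09, 0.05, 0.04, 0.08, 0.11, 0.21, 0.13 and 0.39. They were positive on all 10 arrays, with the highest on array 10. The mean was 0.14 ± 0.03 (SE, n = 10, FDR 0.047). In TG mouse 4 the log2 signal was 8.32, below 4 of the 5 WT mice, which from lowest to highest had 8.23, 8.48, 8.49, 8.54 and 8.61.

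Dhcr7 encodes the reductase of a final step, the enzyme deficient in Smith-Lemli-Opitz syndrome. It had log2 ratios of 0.38, 0.04, -0.01, 0.06, 0.09, 0.10, 0.01, 0.27, 0.34 and 0.11 on arrays 1 to 10. Arrays 1, 8 and 9 were high and the others at or below 0.11. The mean was 0.14 ± 0.04 (SE, n = 10, FDR 0.085), and without arrays 1 and 9 it was 0.09 (FDR 0.22). Its probes had 0.13 and 0.15 and neither was called over all probes (FDR 0.12 and 0.27).

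Lss, lanosterol synthase, closes the sterol ring. Its log2 ratios were 0.04, 0.09, 0.13, 0.04, 0.06, 0.14, 0.17, 0.02, 0.32 and 0.08 on arrays 1 to 10. All were positive, and array 9 stood above the rest. The mean was 0.11 ± 0.03 (SE, n = 10, FDR 0.067), and without arrays 1 and 9 it was 0.09 (FDR 0.11). One probe of Lss was called, with 0.17 ± 0.03 (FDR 0.018 over all probes), and the other had 0.05 ± 0.04 (FDR 0.63).

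Sc5d, sterol C5-desaturase, acts just before Dhcr7. The values of Sc5d on the 10 arrays were 0.14, 0.02, 0.05, -0.02, 0.14, 0.14, 0.08, 0.04, 0.19 and 0.16. They were small and lay close together, with 9 of 10 positive. The mean was 0.10 ± 0.02 (SE, n = 10, FDR 0.056), and without arrays 1 and 9 it was 0.08 (FDR 0.18).

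Without arrays 1 and 9, 5 genes were called higher (Pmvk, Mvd, Fdps, Tm7sf2 and Ebp) and 1, Srebf1, was called lower as labelled. With both arrays of WT mouse 3 left out, or both of WT mouse 4, 1 gene was called, and with those of any other mouse between 2 and 6. Over the 10 fits that each left out 1 mouse, Pmvk was called in 10, Fdps in 8, Mvd in 6, Ebp in 5 and Tm7sf2 in 4. Lss, Sc5d and Dhcr7 were each called in 1 of these fits, and Sqle in 0.

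**Figure D2:**
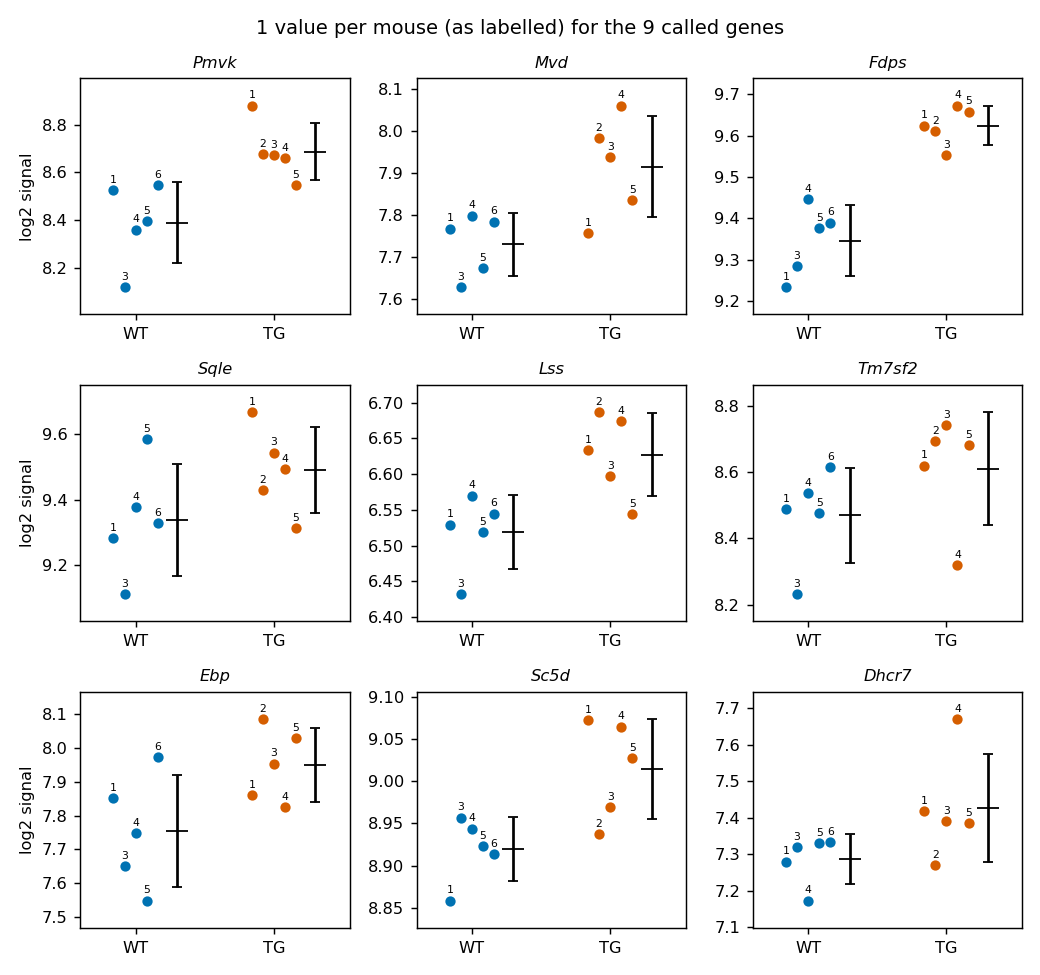
Log2 signal (y axis, one scale per gene, not starting at 0) in the 5 WT and 5 TG mice as labelled for the 9 called genes; each point is the mean of both arrays of a mouse, numbered as labelled, with the mean ± SD beside it. The genotypes are separate for Pmvk and Fdps and overlap for the other 7 genes.

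The other 5 genes of this arm were not called. Fdft1, squalene synthase, had 0.14 ± 0.09 (SE, n = 10, FDR 0.49), and Hsd17b7, a sterol 3-keto reductase, had 0.11 ± 0.05 (FDR 0.30). Msmo1, a methylsterol oxidase, had 0.01 ± 0.08 (FDR 0.96). It was 0.20 ± 0.17 (SD, n = 5) on arrays 1 to 5 and -0.17 ± 0.22 on arrays 6 to 10. Cyp51, the lanosterol demethylase, had -0.01 ± 0.08 (FDR 0.98), and Nsdhl, a sterol dehydrogenase, had -0.06 ± 0.06 (FDR 0.72).

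The sensing and transcription genes had 0 calls among 7, with 3 genes at an unadjusted p under 0.05, and a median log2 ratio of -0.07. Insig2 encodes one of the proteins that retain SCAP in the endoplasmic reticulum. The log2 ratios of Insig2 on arrays 1 to 10 were -0.60, -0.46, -0.42, 0.10, 0.05, -0.24, 0.14, -0.33, -0.93 and -0.15. The values were negative on 7 arrays, with the lowest on arrays 9 and 1. The mean was -0.28 ± 0.10 (SE, n = 10, FDR 0.12), and without arrays 1 and 9 it was -0.16. Insig2 signals were 8.89, 9.14, 8.99, 8.95 and 8.87 in WT mice 1, 3, 4, 5 and 6, and 8.86, 8.85, 8.73, 8.30 and 8.68 in TG mice 1 to 5. The groups did not overlap, with WT mouse 6 and TG mouse 1 nearly equal, and TG mouse 4 lay apart. One of its probes was called lower as labelled, with -0.26 ± 0.06 (FDR 0.036 over all probes), and the other had -0.31 ± 0.16 (FDR 0.34).

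Insig1, the gene of another INSIG protein, had -0.18 ± 0.12 (SE, n = 10, FDR 0.49). Without arrays 1 and 9 its mean was -0.01. Srebf1, the gene of the SREBP-1 factors, had -0.14 ± 0.06 (FDR 0.20) and was negative on 9 of 10 arrays. Without arrays 1 and 9 it was -0.19 and was called (FDR 0.089). Srebf2, whose product SREBP-2 is the main activator of cholesterol synthesis, had -0.07 ± 0.04 (FDR 0.41). Scap, the escort protein, had 0.10 ± 0.04 (FDR 0.18) and was positive on 8 arrays. The liver X receptors had 0.10 ± 0.06 (Nr1h2, FDR 0.44) and 0.05 ± 0.03 (Nr1h3, FDR 0.31).

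Transport, storage and turnover genes had 0 calls among 5, with 1 gene at an unadjusted p under 0.05, and a median log2 ratio of -0.01. Abca1, the exporter that loads sterol onto apolipoproteins, had -0.23 ± 0.08 (SE, n = 10, FDR 0.15) and was negative on 8 arrays. Abcg1, another sterol exporter, had 0.02 ± 0.05 (FDR 0.87). Soat1, which esterifies cholesterol for storage, had -0.01 ± 0.03 (FDR 0.91), and Stard4, a carrier of cholesterol in the cytosol, had -0.05 ± 0.06 (FDR 0.80). Cyp46a1, the neuronal hydroxylase that turns cholesterol into a form that leaves the brain, had 0.05 ± 0.09 (FDR 0.88).

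The mean of Cyp46a1 joined opposite values of the dye orientations. It was 0.30 ± 0.22 (SD, n = 5) on arrays 1 to 5 and -0.21 ± 0.19 on arrays 6 to 10, and the dye term of a fit with genotype and dye had an FDR of 0.016. A dye term at an FDR of 0.1 or less was found for 5 of the 30 genes and for 23.8% of all genes. Beside Cyp46a1, these were Fdps, Msmo1, Srebf1 and Soat1. Fdps was 0.16 ± 0.16 (SD, n = 5) on arrays 1 to 5 and 0.40 ± 0.08 on arrays 6 to 10. The mean had the same sign in both orientations for 21 of the 30 genes, and for all 9 called genes. Those 9 were called from the same 10 ratios, so their shared sign is no separate support. The share over all genes was not counted. The slide numbers in the file headers also fall into separate runs for the orientations, so dye and slide series cannot be told apart.

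Some probes had their lowest values on arrays 1 and 9. Log2 ratios below -0.8 on both arrays were found for 6 of the 48 probes of the set (12.5%) and for 2.56% of all 41174 probes; this limit was set after the values were seen. These probes belong to Cyp51, Hmgcs1, Idi1, Insig1, Insig2 and Nsdhl. The Hmgcs1 probe was also low on other arrays, with -0.79 on array 6 and -0.76 on array 5, close to the limit. The lowest was the Insig1 probe, with -1.62 on array 1 and -1.24 on array 9, against -0.46 to 0.53 on the other 8 arrays. The other Insig1 probe had -0.20 on array 1 and -0.27 on array 9. For Nsdhl, one probe had -0.98 on array 9 and a slightly lower value on array 1, while its other 2 probes lay between -0.14 and 0.02 there. None of these 6 genes was among the 9 called. Arrays 1 and 9 share TG mouse 4 as labelled and WT mouse 5 after the exchange.

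**Figure D3:**
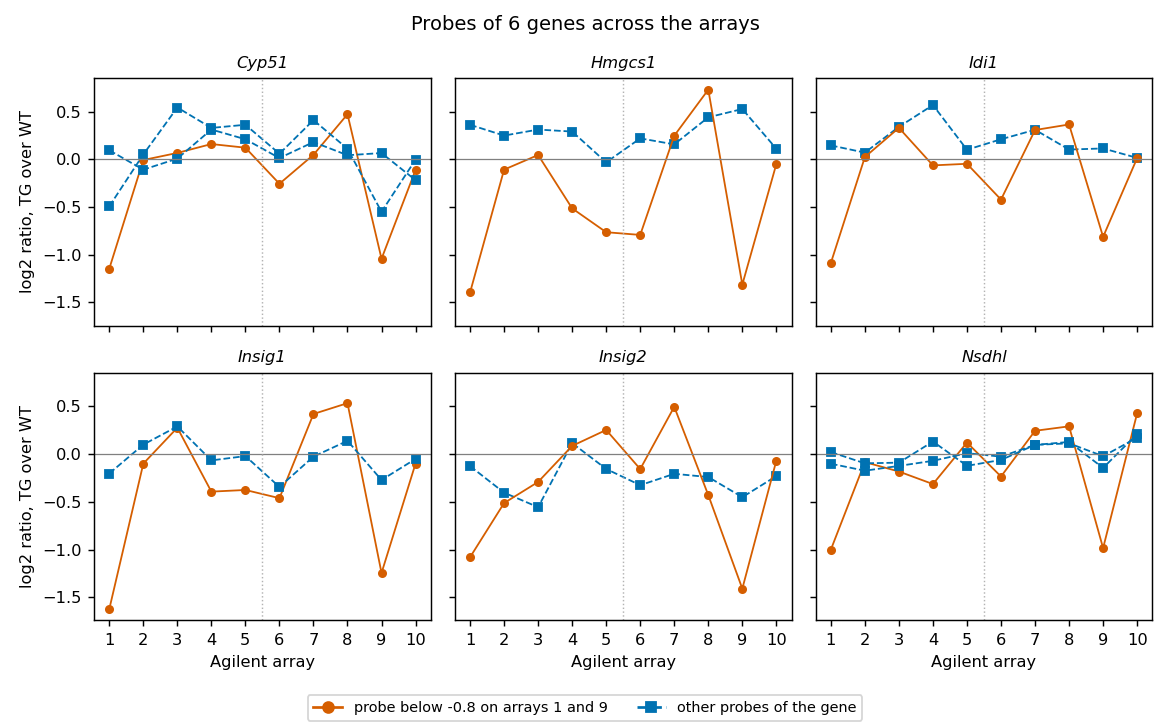
Log2 ratio of TG over WT as labelled (y axis) on Agilent arrays 1 to 10 (x axis) for each probe of 6 genes, with the dotted line between the dye orientations. Circles and solid lines are the probes below -0.8 on arrays 1 and 9, and squares with dashed lines the other probes of the same gene, which stay above -0.6 there.

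Cell type markers were set beside the enzymes. The mean log2 ratio of the squalene and sterol arm was positive on all 10 arrays, from 0.05 to 0.16, and that of the mevalonate arm was positive on 8, from -0.03 to 0.29. On arrays 1 and 9 the squalene and sterol mean joined opposite values. Cyp51 had -0.52 and -0.51 there and Nsdhl -0.36 and -0.38, whereas Sqle had 0.35 and 0.36 and Dhcr7 0.38 and 0.34. The sensing genes ranged from -0.24 to 0.05, with 3 positive arrays. The shares called in the marker lists stand beside 8.2% over all genes. Of 7 oligodendrocyte markers, 1 (14.3%) was called (Mbp, myelin basic protein, -0.51 ± 0.15, FDR 0.084, lower as labelled), and the list's mean per array ranged from -0.67 on array 1 to 0.19 on array 8, with -0.51 on array 9. The markers did not go 1 way: 4 were negative and 3 positive, with 0.24 for Cnp (FDR 0.13) and 0.17 for Cldn11 (FDR 0.20). The mean of the list was -0.14, and without arrays 1 and 9 it was -0.03. Its mean log2 signal was 10.1 to 10.3 in WT mice and 9.62 to 10.2 in TG mice. Of 6 astrocyte markers, 2 (33.3%) were called higher as labelled (Aqp4, 0.30 ± 0.08, FDR 0.067, and Aldh1l1, 0.23 ± 0.05, FDR 0.025), with a list median of 0.19. Gfap had -0.15 (FDR 0.13) and Gja1 -0.08 (FDR 0.46), each positive on 2 arrays. The mean of the list was positive on 8 arrays. Their mean log2 signal was 8.93 to 9.14 in WT mice and 9.10 to 9.17 in TG mice. All markers of both lists had a present probe. The part of these cell types in the differences of the enzymes was not tested. Of the 5 neuronal markers, 1 was called (Tubb3, 0.39, higher as labelled), but 3 of the 5 were negative, with -0.40 for Snap25 (FDR 0.18), and the median was -0.01. Of the 6 microglial markers, 1 was called (Itgam, -0.15, lower as labelled), but 4 were positive, with 0.28 for Aif1 (FDR 0.11), and the median was 0.01. Of the 4 endothelial markers, 1 was called (Cldn5, lower as labelled), all 4 were negative, and the median was -0.11. Of 2 blood markers, Alas2 was called lower as labelled. Among the 5 hippocampal markers C1ql2 was called lower as labelled. The called markers are named after their values were seen. Markers of oligodendrocyte progenitors (3), choroid plexus (5) and meninges (4) had 0 calls, with 0, 0 and 1 gene at an unadjusted p under 0.05 in limma.

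**Figure D4:**
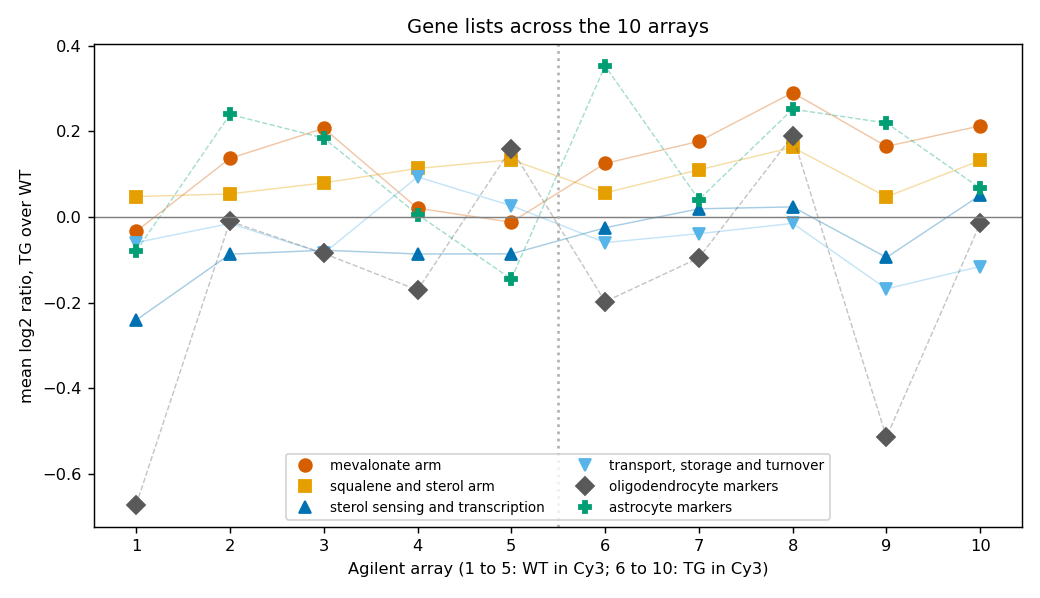
Mean log2 ratio of TG over WT as labelled (y axis) of 4 groups of the cholesterol genes and of 2 marker lists on Agilent arrays 1 to 10 (x axis); thin lines join the arrays of a list and stand for no order. The mean of the squalene and sterol arm stays between 0.05 and 0.16, but it joins genes of opposite sign on arrays 1 and 9. The oligodendrocyte markers fall to -0.67 on array 1 and -0.51 on array 9.

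Neighbouring pathways are given by their counts, beside 8.2% called over all genes. Of 15 genes of the isoprenoid branch, which uses farnesyl pyrophosphate for prenylation, dolichol and ubiquinone, 1 (6.67%) was called: Fntb, a subunit of protein farnesyltransferase, with 0.24 ± 0.06 (SE, n = 10, FDR 0.057). Fatty acid synthesis, also under SREBP control, had 1 call among 16 genes (6.25%), the desaturase Scd2, lower as labelled with -0.23 ± 0.07 (FDR 0.097). Sterol transport and oxysterol genes had 3 calls among 19 (15.8%), all higher as labelled. Lcat, which esterifies cholesterol on lipoproteins, had 0.31 ± 0.04 (FDR 0.0079) and was positive on all 10 arrays, from 0.06 to 0.50. Abcg4, a sterol exporter of the brain, had 0.23 ± 0.07 (FDR 0.096), and Lipa, lysosomal acid lipase, had 0.17 ± 0.04 (FDR 0.059). Of 12 genes of SREBP processing and its cofactors, 1 (8.33%) was called: Mbtps1, the protease that makes the first SREBP cut, lower as labelled with -0.15 ± 0.05 (FDR 0.099). None of these genes was called with 1 value per mouse as labelled. The medians of these lists were 0.02, -0.01, 0.01 and -0.03.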

How the data were processed

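RNA of hippocampus from 5 WT and 5 TG mice was measured on 10 two-color Agilent arrays. The authors used Agilent Feature Extraction 8.5.1.1, per the file headers, to read mean and median pixel intensities of 43790 features per array, and deposited these intensities without normalization; the deposited log10 ratios of Cy5 over Cy3 had been background-corrected and dye-normalized by that software. Other deposited columns, such as flags, were used as marks of spots. Here, intensities were not background-corrected, following the study's methods. Within each array, loess was applied to the log ratios (limma 3.58.1, R 4.3.3), with control spots at weight 0, and turned to TG over WT as labelled. Spots of a probe, then probes of a gene, were averaged. A moderated test of the mean ratio was fitted over 34431 genes and unnamed probes, adjusted by Benjamini-Hochberg, and called at an FDR of 0.1. For values per mouse, single-channel log2 intensities after loess and Aquantile normalization were averaged over both arrays of a mouse. Samples were grouped by the labelled genotype and dye. Of 41174 probes, 22072 were named by RefSeq accession, 749 by a symbol and 767 by an older symbol in the description. Of the 48 probes of the 30 genes, 46 were present, 44 were well above background on all 10 arrays and 0 were saturated. Scripts were tested on simulated data.

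The members and lists were chosen with earlier results of these data known. All called members are named with all array values, every other member with its ratio, SE and FDR, and genes of other lists when called. Alternatives covered background correction, normalization, pixel statistic, probe choice, present probes, dye term, robust regression, values per mouse, mouse number block, a stricter FDR and leaving out arrays or mice.

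Of 33012 ABI probes, whose raw intensities were deposited without normalization, 436 could be named through their accession, and 0 belonged to the set, so ABI values were not used. The 80 columns of the Illumina table name no sample of the labels and were not used. Values of some genes of this pathway are not reported here.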

Additional observations from a re-analysis of the deposited data

Results flagged for a closer look

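In 3 of the 30 genes, 1 array lay far from the other 9 by Dixon's test at the 95% level, which chance gives in about 1 of 20 genes, and the cause was not tested. Fdft1 had a log2 ratio of 1.04 on array 8, against -0.14 to 0.16 on the other arrays, and the value came from 1 of its 2 probes. Mvk had 0.44 on array 10, against -0.14 to 0.08 on the others. Lss had 0.32 on array 9, against 0.02 to 0.17.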

How the results depend on the processing

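Over 39 alternatives, the 9 called genes gave 351 values. None reversed its direction as labelled, 230 were called and 121 were not. Some alternatives, such as the dye term and the stricter FDR, leave the mean ratio unchanged and could not reverse it. Aquantile after loess repeated the main ratios and FDRs of the called genes. The fit of single channels with genotype, dye and array likewise repeated those of the dye term. The 39 alternatives are therefore not all separate tests. The values after the exchange were counted with the sign as labelled, although the exchange itself turns every sign. The count of 9 genes called higher was 4 with median centring within arrays, 5 at an FDR of 0.05, and 0 with 1 value per mouse as labelled or after the exchange. It was also 0 with the mouse number of the labels as a replicate block on the values per mouse, where 4 of the 30 genes had an unadjusted p under 0.05 in limma. The mouse numbers do not pair the mice: the deviations of same-numbered WT and TG mice correlated between -0.21 and -0.08 for the 4 shared numbers. When an array or a mouse was left out, the count ranged from 1 to 8. It was 5 without array 2 or without array 6, 5 without WT mouse 1, 1 without WT mouse 3 or WT mouse 4, 3 without WT mouse 5, 5 without TG mouse 1, 3 or 4, 4 without TG mouse 2 and 2 without TG mouse 5. The count of genes called lower was 0, and 1 with the brightest probe of a gene (Insig2), 1 with robust regression (Srebf1), 1 at probe level (Insig2), 3 with the WT mouse as a random block (Insig2, Srebf1, Abca1), 2 with the TG mouse as a random block (Insig2, Abca1), and 0 to 1 when an array or a mouse was left out. The random blocks were chosen after seeing the data; the correlation between the arrays of a mouse was estimated as -0.25 for labelled WT mice and -0.16 for labelled TG mice. The median log2 ratio of the 30 genes was 0.11 with median centring, where the median of all genes was -0.03, and 0.10 with the probe of the smallest p; it ranged from 0.04 to 0.08 when an array or a mouse was left out. The number of genes called on the whole array was 1157 with median centring, 1245 at an FDR of 0.05, 29 with 1 value per mouse as labelled, 11 after the exchange, 0 with the replicate block, and 5195 with the WT mouse as a random block; it ranged from 312 to 3153 when an array or a mouse was left out. All arrays were scanned on 1 day, so a fit with the scan day as a block was not run, and the ABI alternatives were not run because no ABI probe could be named as a member.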
